A study of Mus musculus with 15 samples.

Results

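The genes described here are 8 secreted members of the TGF-beta superfamily pathway and its extracellular regulators: the ligands Tgfb1, Tgfb2 and Tgfb3, the activin A subunit Inhba, the BMP ligands Bmp2 and Bmp4, the BMP antagonist Grem1, and Ltbp2, which is named for its family, the latent TGF-beta binding proteins. They were chosen by name, with earlier results of these data known. Every transcription unit whose gene name lists 1 of these symbols was taken, which gave 17 of the 65522 units. Each unit has an FPKM, a fragment count corrected for the length of the transcript and the size of the library, in each of 15 samples of mouse embryonic fibroblasts. All values below are for the unit of each gene with the highest mean FPKM, unless others are named.

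All populations were female cells of C57BL/6 background, analysed as poly(A)-selected RNA. Primary WT populations (CIZ1 +/+, n = 3, embryos E14.4, E13.8 and E13.1) and primary CIZ1 null populations (CIZ1 -/-, n = 3, embryos E14.2, E13.17 and E13.15) were collected before passage 5, and 1 culture-adapted line was derived from each of them by continued growth (n = 3 per genotype). The null allele is a gene trap carrying neomycin resistance, placed after the first exon of Ciz1. Primary E13.17 cells, a second untreated population (S13) and 2 populations treated with doxycycline at 5 to 10 µg/ml (S14 and S15) also carry an inducible transgene for full-length GFP-CIZ1, whose expression the drug switches on. By the study's list of lines, the adapted line of E13.17 carries the transgene too, and that line was not treated. Because each population grew from 1 embryo and each adapted line is 1 line, the spread within a group is the spread between embryos or lines.

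TGF-beta ligands are secreted in a latent form, bound to their propeptide and usually to a latent TGF-beta binding protein in the matrix, and act through SMAD2 and SMAD3 once released. Activin A, a dimer of the Inhba product, uses the same SMADs, whereas BMPs act through SMAD1, SMAD5 and SMAD9. In fibroblasts TGF-beta is best known for driving contractile and matrix genes, and Gremlin 1 binds BMP2 and BMP4 outside the cell and keeps them from their receptors.

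Ciz1, the gene that was disrupted, lay between 18.7 and 25.0 FPKM in all 6 WT samples and between 0.0546 and 0.724 FPKM in the 6 CIZ1 null samples. It was 0.514 FPKM in S13, 296 in S14 and 191 in S15, so Ciz1 matched each library's label for CIZ1 status. Ciz1 does not tell primary from adapted cells or embryos from each other. The induced level stood above that of WT cells. Relative to primary WT E14.4, library depth was 1 to 1.64 in primary WT cells, 1.21 to 1.44 in primary CIZ1 null cells, 0.62 to 1.19 in adapted WT cells, 0.54 to 0.901 in adapted CIZ1 null cells, 0.483 in S13 and 0.877 to 1.17 in treated cells. The summed FPKM of 6 fibroblast markers (Col1a1, Col1a2, Col3a1, Vim, Pdgfra and Thy1) was 8072 to 8756 in primary WT, 8464 to 8648 in primary null, 1758 to 4664 in adapted WT and 2234 to 3664 in adapted null samples. Thy1 was listed at 0 in adapted WT E13.8 and at 0.215 FPKM in adapted null E13.17. Not every marker fell in every line. Pdgfra was higher after adaptation in E13.1, E14.4, E13.15 and E14.2 and lower in E13.8 and E13.17. Col3a1 was at 1063 FPKM in adapted WT E13.8, against 362 in its primary population, and was lower after adaptation in every other embryo. The other fibroblast markers were lower after adaptation in every embryo. Summed markers of epithelial (3 genes), endothelial (3 genes) and leukocyte cells (3 genes) stayed at or under 1.34, 2.60 and 9.0 FPKM in every sample. The neural markers Sox10 and Sox2 summed to at most 4.96 FPKM (primary null E13.15), and the neural marker Tubb3 had no unit. Of 3 skeletal muscle markers, Myod1 was at 0 in every sample and Myog was at 0 in all but primary WT E13.8 (0.0429 FPKM). The third, Des, which encodes desmin, was at 6.14 to 13.6 FPKM in primary WT and null cells, 4.40 to 7.65 in S13 to S15 and 0 to 0.687 in adapted cells. The part of the fibroblast markers and Des in the results below was not tested. In bulk RNA, fewer cells that express a gene and less RNA in each cell cannot be told apart.

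The start regions of 3 members are printed because Inhba and Tgfb1 are the members that passed the test on adaptation of WT cells, and Grem1 is the antagonist. They come from RefSeq (GRCm38.p6), where 6 of the 8 members were matched (no entry for Bmp2 or Tgfb3), and run from 250 bases before to 50 bases after the gene's start on the gene's own strand. Capitals mark matches on either strand to the SMAD binding core CAGAC, the GC box letters GGGCGG and the TATA box letters TATAAA. The windows lie at chr13:16011601-16011900 (plus strand, Inhba), chr7:25686752-25687051 (plus strand, Tgfb1) and chr2:113758599-113758898 (minus strand, Grem1), so each covers upstream sequence and the first bases of exon 1.
Inhba: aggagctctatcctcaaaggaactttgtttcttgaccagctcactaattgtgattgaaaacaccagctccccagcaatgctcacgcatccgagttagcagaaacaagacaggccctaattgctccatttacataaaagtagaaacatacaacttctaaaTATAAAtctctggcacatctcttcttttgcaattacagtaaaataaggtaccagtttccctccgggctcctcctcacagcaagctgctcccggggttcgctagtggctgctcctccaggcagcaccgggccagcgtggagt
Tgfb1: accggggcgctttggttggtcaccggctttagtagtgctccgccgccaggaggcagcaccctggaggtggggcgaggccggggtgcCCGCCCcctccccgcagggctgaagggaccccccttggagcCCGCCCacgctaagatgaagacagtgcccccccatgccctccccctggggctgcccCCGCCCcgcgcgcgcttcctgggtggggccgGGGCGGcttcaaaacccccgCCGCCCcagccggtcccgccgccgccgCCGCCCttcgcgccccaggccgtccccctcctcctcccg
Grem1: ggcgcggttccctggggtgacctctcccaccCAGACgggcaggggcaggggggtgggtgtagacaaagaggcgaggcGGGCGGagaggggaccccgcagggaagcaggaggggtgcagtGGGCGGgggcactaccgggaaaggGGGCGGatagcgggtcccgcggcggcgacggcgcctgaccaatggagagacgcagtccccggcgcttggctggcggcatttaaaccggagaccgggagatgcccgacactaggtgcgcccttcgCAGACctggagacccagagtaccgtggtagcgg

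Tgfb1 held 6 matches to GGGCGG and Grem1 held 3, while Inhba held 0. Inhba held 1 match to TATAAA, as did Tgfb2. Whether any match acts as a binding site was not tested. CAGAC was matched 2 times in Grem1 and 0 times in Inhba and Tgfb1. Of 32851 promoters of the same length, 49.6% held CAGAC, 35.7% held GGGCGG and 13.6% held TATAAA. The AP-1 letters TGANTCA, held by 7.81% of all promoters, were matched in 0 of the 6 windows.

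In primary WT cells the members covered a wide range of levels. Inhba had the highest mean FPKM (279 ± 96.4, SD, n = 3), followed by Ltbp2 (218 ± 33.9) and Tgfb3 (167 ± 26.6). The values of Inhba overlapped with those of Ltbp2, and these with those of Tgfb3, which was apart from the next gene. That was Tgfb1 (49.7 ± 15.5), which overlapped with Grem1 (41.8 ± 20.5). Tgfb2 (9.11 ± 3.95), Bmp4 (4.76 ± 0.512) and Bmp2 (0.0391 ± 0.044) were lowest, and each of these was apart from its neighbours. In primary CIZ1 null cells Ltbp2 and Inhba were highest (159 ± 52.2 and 141 ± 98.9 FPKM) and overlapped, and in adapted CIZ1 null cells Grem1 led (133 ± 100), with every gene overlapping the next in order.

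**Figure D1:**
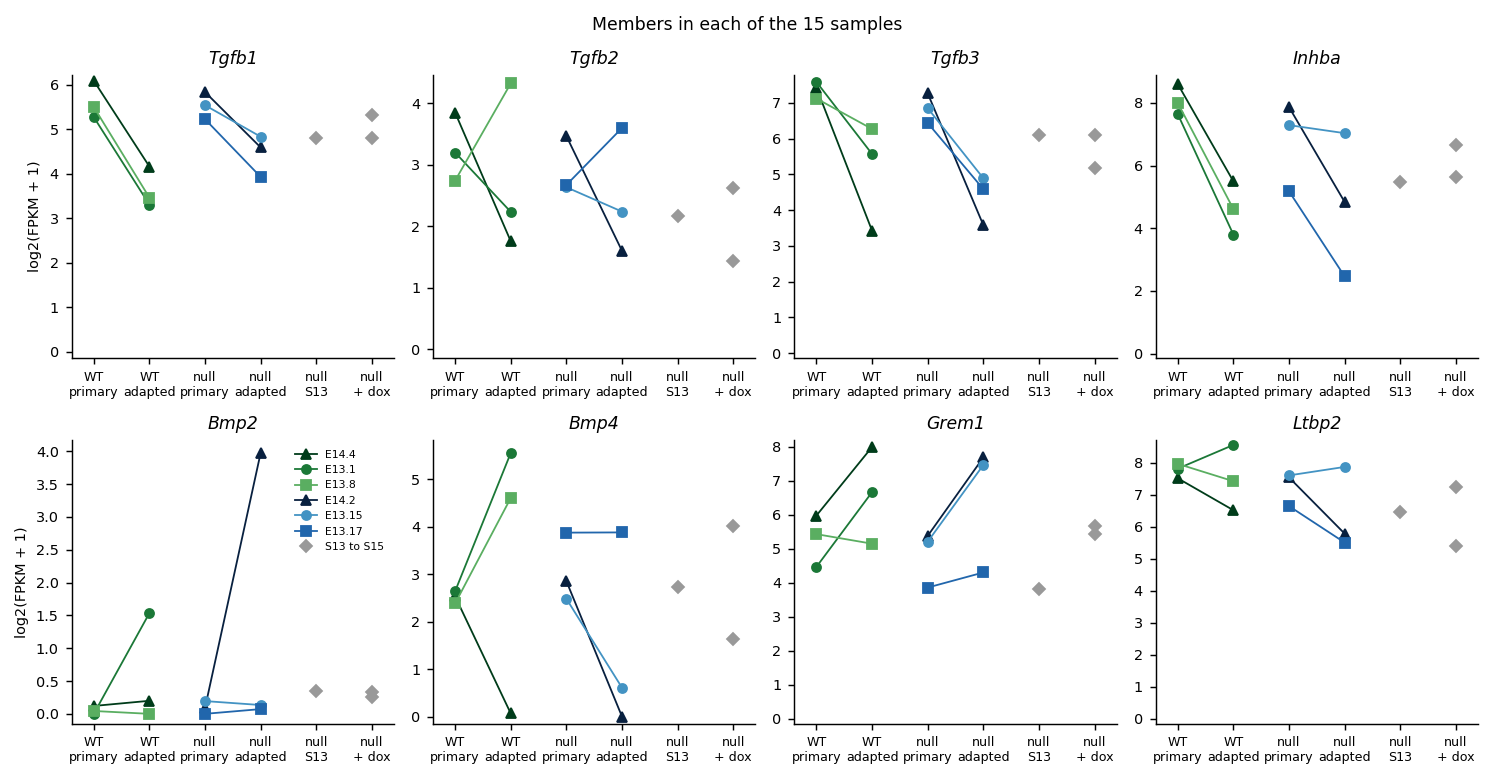
Level of each member, as log2(FPKM + 1), in each of the 15 samples; lines join a primary population to the adapted line from the same embryo (greens WT, blues CIZ1 null) and grey diamonds are S13 to S15. Tgfb1 and Tgfb3 were lower in the adapted line in all 6 embryos, whereas Bmp4 and Tgfb2 moved in different directions in different lines.

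The first question was how the ligands changed when WT fibroblasts were adapted to culture. Tgfb1 and Inhba fell, in 3 of 3 embryos. The comparison used limma on log2(FPKM + 1), and units with a Benjamini-Hochberg adjusted p under 0.05, taken over all units tested, are referred to as called. Of the 7 members with a mean FPKM of at least 1, 2 were called, both lower, where 9.55% of all 19919 units tested were called and 6.68% were called lower. Bmp2 did not pass the filter on low values and was not tested. After quantile normalization 849 of 1882 calls across all units were higher, against 572 of 1902 without it, and both members were still called lower.

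Tgfb1, the isoform best known in tissue repair (GRCm38 chromosome 7, 25687002 to 25705077), was at 44.3, 67.2 and 37.7 FPKM in primary WT cells (E13.8, E14.4 and E13.1) and at 10.0, 16.9 and 8.89 in the adapted lines of the same embryos. The groups did not overlap, and E14.4 was highest in both. The fitted difference was -1.98 (SE 0.313, limma adjusted p = 0.0207). Its second unit gave -1.96.

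Inhba encodes the beta A chain shared by activin A and inhibin A (chromosome 13, 16011851 to 16031621). It was at 253, 385 and 198 FPKM in primary WT E13.8, E14.4 and E13.1 and at 23.4, 44.0 and 12.9 in their adapted lines. All adapted values lay below all primary values, and the order of the embryos was kept. The difference was -3.44 (SE 0.461, limma adjusted p = 0.0151), and its 2 other units gave -3.72 and -2.87. Without primary E13.8, E14.4 or E13.1 the calls over all units went from 1902 to 65, 62 and 70, and both members were among the calls lost. Their adjusted p was then at most 0.096 for Tgfb1 and 0.0803 for Inhba, with differences between -2.15 and -1.74 and between -3.66 and -3.18.

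Tgfb3, a ligand needed for palate closure (chromosome 12, 86056745 to 86079041, in a locus assembled together with Ttll5), was at 138, 170 and 191 FPKM in primary WT E13.8, E14.4 and E13.1. In the adapted lines it was at 76.1, 9.71 and 46.4 FPKM. The groups did not overlap, but the lines differed widely, and the difference of -2.29 (SE 0.691) did not pass the test (limma adjusted p = 0.0833). It passed when adapted E14.4, the line with the lowest value, was left out (-1.46, adjusted p = 0.028), and with all 12 primary and adapted samples in a single fit (-2.29, adjusted p = 0.0342). Over all samples left out in turn it was -2.88 to -1.46, with a limma adjusted p from 0.028 to 0.223. In all, 3 of the 7 members tested had adapted values entirely below the primary ones, where 21.4% of all units tested had.

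Tgfb2, which signals with the help of the co-receptor betaglycan (chromosome 1, 186622792 to 186705989), did not move in one direction in WT cells. It went from 13.4 to 2.38 FPKM in E14.4, from 8.20 to 3.71 in E13.1 and from 5.70 to 19.1 in E13.8. The groups overlapped (difference -0.49, SE 0.681, limma adjusted p = 0.663).

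The share of Tgfb2 in the summed FPKM of the 3 TGF-beta isoforms was higher in the adapted line in each of the 6 embryos. In WT cells it was 3.03% (E13.8), 5.35% (E14.4) and 3.46% (E13.1) before adaptation and 18.1%, 8.20% and 6.28% after it, that is, 3.95% ± 1.23 against 10.9% ± 6.35 (SD, n = 3 each). In CIZ1 null cells it was 3.16% (E13.15), 4.22% (E13.17) and 4.60% (E14.2) before and 6.21%, 23.0% and 5.63% after, 3.99% ± 0.748 against 11.6% ± 9.87. Neither pair of groups overlapped. The size of both differences rested on 1 line: without adapted E13.8 the WT difference went from 6.92 to 3.30 percentage points, and without adapted E13.17 the null difference went from 7.63 to 1.93. In each genotype an exact two-sided permutation test gave p = 0.1, the smallest that 3 against 3 samples allow, so the test could not pass the threshold. The summed FPKM itself was 188 to 251 in primary WT and 29.0 to 105 in adapted WT cells, and 128 to 219 in primary and 36.1 to 59.9 in adapted null cells, so the larger share of Tgfb2 was a share of a smaller sum.

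**Figure D2:**
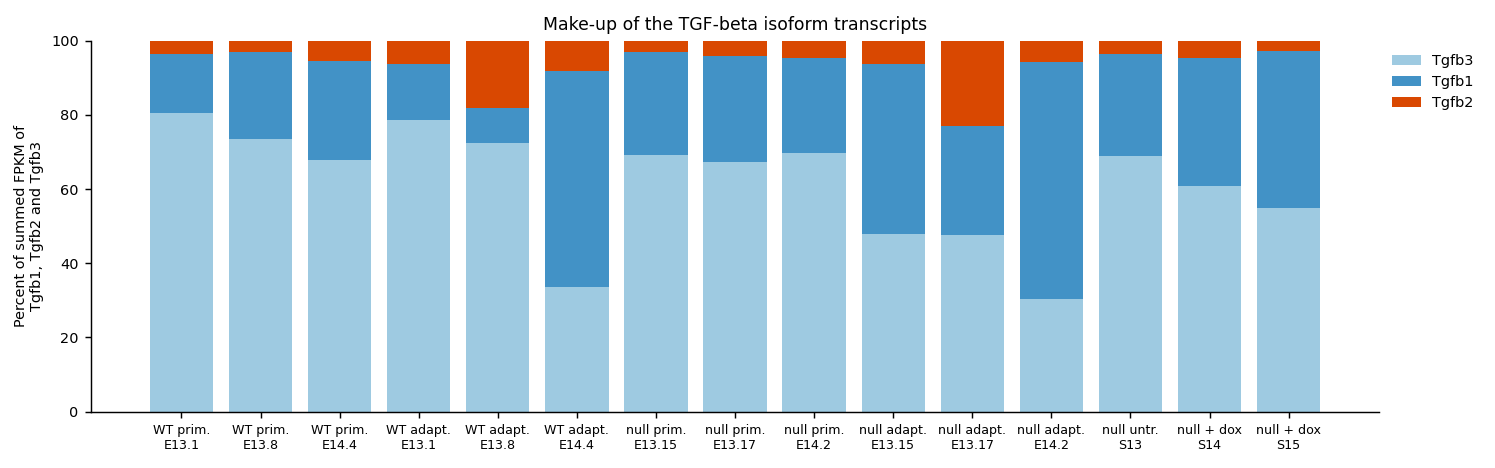
Percent of the summed FPKM of Tgfb1, Tgfb2 and Tgfb3 held by each isoform, 1 bar per sample. Tgfb3 made up 67.2% to 80.6% of the sum in primary WT and primary null cells and 30.3% to 78.7% in adapted cells, and Tgfb2 was largest in adapted WT E13.8 (18.1%) and adapted null E13.17 (23.0%).

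The same question in CIZ1 null cells gave 1 called member of 8 tested, Tgfb3, which fell in 3 of 3 embryos. In this comparison 4.86% of all 20044 units tested were called and 3.47% were called lower. After quantile normalization 299 of 778 calls were higher, against 280 of 975 without it. Tgfb3 was at 85.7, 153 and 114 FPKM in primary null E13.17, E14.2 and E13.15 and at 23.0, 10.96 and 28.7 in their adapted lines. No values overlapped, and E14.2 went from the highest primary to the lowest adapted value. The difference was -2.50 (SE 0.392, limma adjusted p = 0.0296). With the embryo as a replicate block the call was lost (SE 0.428, adjusted p = 0.0929, 10 units called in all), and so it was without primary E13.17, E14.2 or E13.15, or without the adapted line of E14.2 (adjusted p at most 0.14). Over all units, 30, 25, 30 and 40 calls were then left of 975.

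Tgfb1 in CIZ1 null cells was at 36.5, 56.2 and 45.6 FPKM in primary E13.17, E14.2 and E13.15 and at 14.2, 23.1 and 27.5 after adaptation. The values did not overlap, but the difference of -1.08 (SE 0.293) did not pass the test (limma adjusted p = 0.0767). It passed without adapted E13.15 (-1.27, adjusted p = 0.0441) and with all 12 samples in a single fit (adjusted p = 0.0457). Over all samples left out in turn it was -1.27 to -0.82, with a limma adjusted p from 0.0441 to 0.227. Together with Tgfb3, 2 of the 8 members tested had adapted values entirely below primary ones, where 19.6% of all units tested had.

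Inhba in CIZ1 null cells went from 231 to 27.6 FPKM in E14.2, from 155 to 130 in E13.15 and from 35.2 to 4.51 in E13.17. Adapted E13.15 thus kept a level within the range of primary null cells, and primary E13.17 was low already. The difference was -2.00 with a wide error (SE 1.22, limma adjusted p = 0.319). Tgfb2 went from 10.1 to 2.03 FPKM in E14.2 and from 5.22 to 3.72 in E13.15, but from 5.38 to 11.1 in E13.17 (difference -0.45, SE 0.531, limma adjusted p = 0.603).

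**Figure D3:**
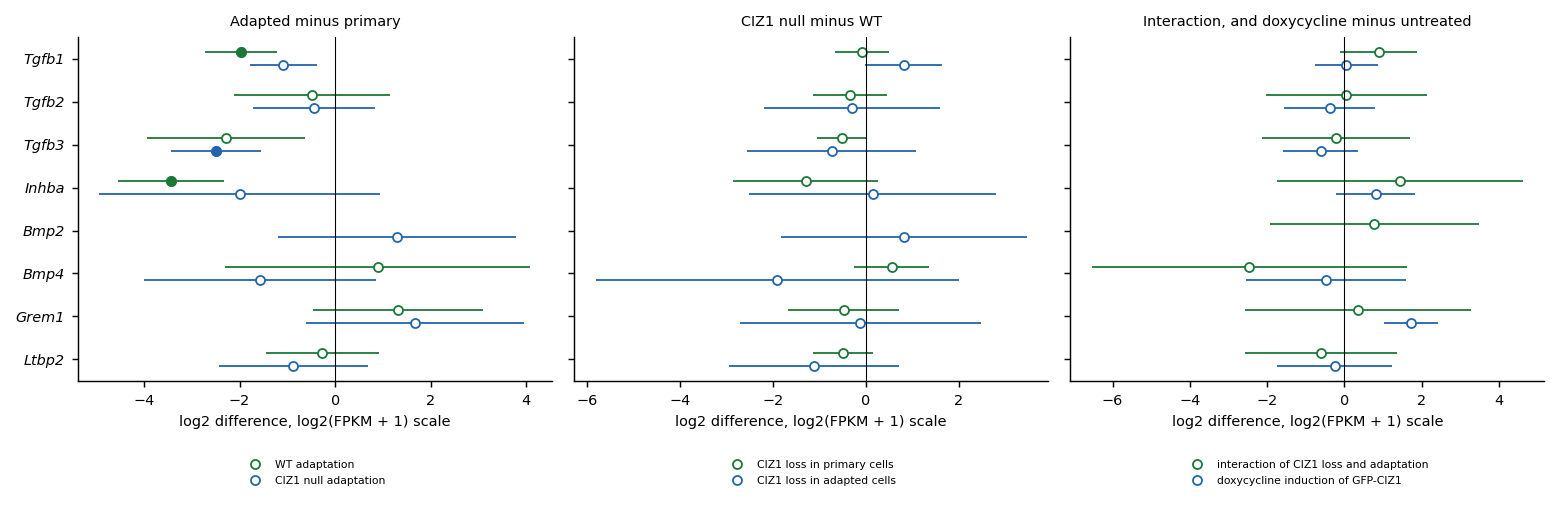
Differences of each member with 95% intervals on the log2(FPKM + 1) scale in the 6 comparisons; filled points passed the test (adjusted p under 0.05), open points did not, and Bmp2 has no point where it did not pass the filter. Only Tgfb1 and Inhba in WT adaptation and Tgfb3 in CIZ1 null adaptation are filled.

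The BMP ligands differed widely between adapted lines of the same genotype. Bmp4, a ligand that patterns mesoderm and limb (chromosome 14, 46383520 to 46390669), was steady in primary WT cells at 4.23, 4.79 and 5.25 FPKM (E13.8, E14.4, E13.1). After adaptation it was at 23.4, 0.0469 and 46.1 FPKM. The lines from E13.1 and E13.8 were thus above every primary WT value and the line from E14.4 was below them all. The difference was 0.89 (SE 1.33, limma adjusted p = 0.689), and without adapted E14.4 it was 2.56 (adjusted p = 0.013). Over all samples left out in turn it was -0.18 to 2.56, with a limma adjusted p from 0.013 to 0.934.

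In CIZ1 null cells Bmp4 went from 6.24 FPKM to a listed 0 in E14.2, from 4.60 to 0.526 in E13.15, and from 13.7 to 13.8 in E13.17. The lines thus included 2 below the primary range and 1 at its top. The difference was -1.58 (SE 1.01, limma adjusted p = 0.34), and without adapted E13.17 it was -2.77 (adjusted p = 0.0433). Over all samples left out in turn it was -2.77 to -0.83, with a limma adjusted p from 0.0433 to 0.639.

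Bmp2, a ligand known for inducing bone (chromosome 2, 133552159 to 133562885), lay at or under 0.144 FPKM in the 6 primary samples of the main comparisons. It was at 0.271 FPKM in S13, 0.26 and 0.2 in the treated samples, and at or under 0.148 in 4 of the 6 adapted lines. The exceptions were adapted null E14.2 at 14.7 FPKM and adapted WT E13.1 at 1.90. All 3 Bmp2 units showed the same pattern (Pearson r with the unit given here 0.991 and 0.986 over 15 samples, which differ in depth). Bmp2 passed the filter in the CIZ1 null comparison through adapted E14.2 alone, and the difference there, 1.30 (SE 1.04), did not pass the test (limma adjusted p = 0.437).

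Grem1, which sequesters BMP2 and BMP4 (chromosome 2, 113746164 to 113758646), was at 42.2, 62.1 and 21.1 FPKM in primary WT E13.8, E14.4 and E13.1 and at 34.5, 255 and 101 in their adapted lines. It was thus higher after adaptation in E14.4 and E13.1 and lower in E13.8. The difference was 1.31 (SE 0.742, limma adjusted p = 0.279). In CIZ1 null cells it went from 40.7 to 205 FPKM in E14.2, from 36.0 to 176 in E13.15 and from 13.5 to 18.7 in E13.17. All 3 adapted values were above that of their own embryo, but adapted E13.17 overlapped with the primary range, and the difference was 1.67 (SE 0.948, limma adjusted p = 0.286). Without adapted E13.17 it was 2.76 (adjusted p = 0.0465). Leaving out each sample in turn gave 1.07 to 2.76, with a limma adjusted p from 0.0465 to 0.546.

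Across the 6 adapted lines, the 3 with the highest Grem1 (WT E14.4, null E14.2 and null E13.15, 176 to 255 FPKM) were those with the lowest Bmp4 (0 to 0.526 FPKM). The 2 lines with the lowest Grem1, WT E13.8 and null E13.17, had the highest Tgfb2 (19.1 and 11.1 FPKM), a high Bmp4 (23.4 and 13.8 FPKM), and the 2 lowest values of Thy1. Adapted WT E13.1 had both a high Bmp4 (46.1 FPKM) and a Grem1 of 101 FPKM. These lines were picked out by their values, and no test was made of the pattern.

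The log2 ratio of Grem1 to Bmp2 plus Bmp4, with 0.1 FPKM added to each side, lay between 1.99 and 3.64 in primary WT cells and was 0.556, 9.76 and 1.07 in the adapted lines from E13.8, E14.4 and E13.1. In primary CIZ1 null cells it was -0.02, 2.67 and 2.90 in E13.17, E14.2 and E13.15, and it was 0.436, 3.79 and 7.93 in their adapted lines. The means moved from 2.97 ± 0.869 to 3.79 ± 5.17 in WT (exact two-sided permutation p = 1) and from 1.85 ± 1.62 to 4.05 ± 3.75 in CIZ1 null cells (SD, n = 3 each, exact permutation p = 0.4), where 0.1 is the smallest p possible. In WT cells the direction rested on 1 line: without adapted E14.4 the difference of the means went from 0.824 to -2.16.

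**Figure D4:**
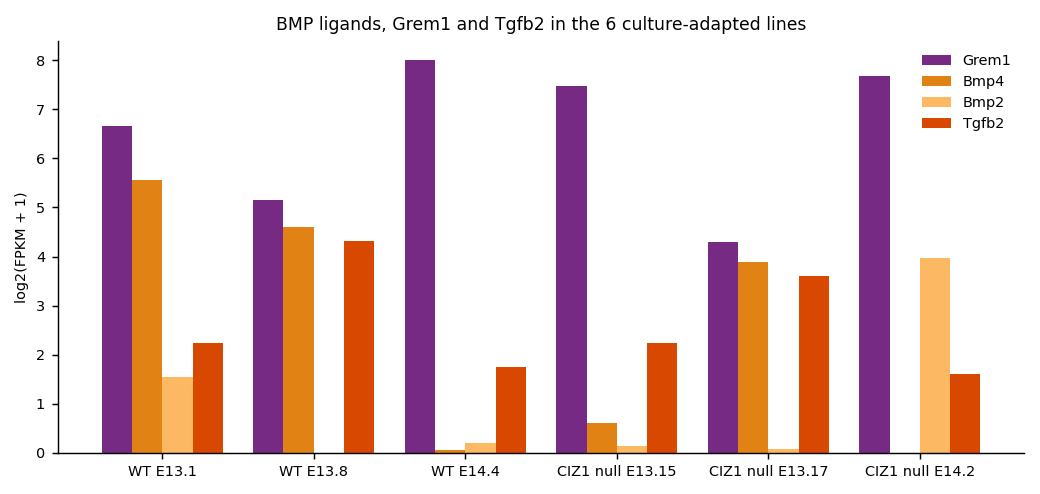
Level of Grem1, Bmp4, Bmp2 and Tgfb2, as log2(FPKM + 1) with bars from 0, in each of the 6 culture-adapted lines. Bmp4 is at or near 0 in WT E14.4, null E13.15 and null E14.2, where Grem1 is highest, and Bmp2 stands out in null E14.2 (14.7 FPKM) and, at a lower level, in WT E13.1 (1.90 FPKM).

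Ltbp2, a matrix protein of the fibrillin family (chromosome 12, 84783212 to 84876532), was at 249, 182 and 224 FPKM in primary WT E13.8, E14.4 and E13.1 and at 170, 90.4 and 375 in their adapted lines. The adapted values fell on both sides of the primary ones (difference -0.27, SE 0.49, limma adjusted p = 0.746), and the second Ltbp2 unit gave 0.24, that is, the opposite sign. In CIZ1 null cells Ltbp2 went from 185 to 54.1 FPKM in E14.2, from 193 to 233 in E13.15 and from 98.9 to 44.4 in E13.17 (difference -0.88, SE 0.649, limma adjusted p = 0.406). Without adapted E13.15, the line above its primary population, the difference was -1.62 (adjusted p = 0.0369). Over all samples left out in turn it was -1.62 to -0.44, with a limma adjusted p from 0.0369 to 0.687. Ltbp2 has a further limit, which it shares with other members. Its locus also holds D030025P21Rik. The locus of Bmp4 also holds Gm15217 and Gm15222, that of Tgfb2 Gm26169 and Gm29491, and that of Tgfb3 Ttll5, Gm37804 and Gm26531. Reads of genes at the same locus may have been mixed because library strand was not used.

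Loss of CIZ1 was then compared within primary and within adapted cells. In primary cells 0 of 7 members tested passed limma's test, 0 had an unadjusted p under 0.05, and 0.00511% of all units tested were called (1 of 19566). The lowest unadjusted p was that of Tgfb3, 85.7, 153 and 114 FPKM in null against 138, 170 and 191 in WT cells, with a difference of -0.52 (95% interval -1.06 to 0.02, adjusted p = 0.799). Inhba had the largest difference, -1.30 (95% interval -2.86 to 0.27, adjusted p = 0.815), and its lowest value was that of primary E13.17. The interval for Tgfb1, -0.67 to 0.50, was among the narrowest, so a change of more than 1 log2 unit in either direction lay outside it. Intervals were wider for others, such as -1.67 to 0.72 for Grem1 and -0.26 to 1.36 for Bmp4.

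In adapted cells 0 of 8 members passed and 0 had an unadjusted p under 0.05 (limma), where 0.00501% of all units tested were called (1 of 19976). Tgfb1 came closest, at 14.2, 23.1 and 27.5 FPKM in null against 10.0, 16.9 and 8.89 in WT lines, with overlap between adapted null E13.17 and adapted WT E14.4. The difference was 0.81 (95% interval -0.03 to 1.64, adjusted p = 0.998). Its second unit, not counted above, gave 0.72 (limma unadjusted p = 0.0494, adjusted p = 0.998). Bmp4 had the largest difference, -1.91, and the widest interval, -5.82 to 2.00. No other tool was run. By the study's account, Cuffdiff called more units on CIZ1 loss than were called here, in primary and in adapted cells.

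Whether adaptation changed the members differently with and without CIZ1 was asked with an interaction term fitted to the 12 primary and adapted samples. It gave 0 of 8 members, 0 of them with an unadjusted p under 0.05, and 0% of the 20046 units tested were called (928 at an unadjusted p under 0.05). For Tgfb1 the difference between the changes was 0.90 (95% interval -0.10 to 1.89, limma adjusted p = 0.996), and for Inhba it was 1.44 (-1.73 to 4.62, adjusted p = 0.996). For Tgfb3 it was -0.21 (-2.12 to 1.71, adjusted p = 0.999). The second Tgfb1 unit, not counted above, gave 1.04 (limma unadjusted p = 0.0354, adjusted p = 0.996). That Tgfb1 and Inhba were called in WT cells and Tgfb3 in CIZ1 null cells was therefore not shown to be a difference between the genotypes. These comparisons share samples with the ones on adaptation.

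Re-expression of GFP-CIZ1 was examined in the 2 treated samples (S14 and S15) against the 2 untreated transgenic primary ones (primary E13.17 and S13). By the study's account these 4 samples come from only 2 embryos, each with and without the drug. The sources used here do not say which treated sample belongs to which embryo, so the fit has no block and treats as independent samples that are not. None of the 7 members tested was called by limma, where 0.0101% of all units tested were called (2 of 19768). An unadjusted p under 0.05 was found for 347 of the 19768 units and for 1 of the members. That was Grem1, at 13.5 and 13.02 FPKM without and 49.9 and 42.6 FPKM with doxycycline. The treated values lay above the untreated ones and within the range of primary WT cells. Untreated primary null E14.2 and E13.15, at 40.7 and 36.0 FPKM, lay within that range too. Grem1 was not called on CIZ1 loss in primary cells (limma adjusted p = 0.869). The difference of Grem1 with doxycycline was 1.72 (SE 0.279, 95% interval 1.03 to 2.41, limma unadjusted p = 0.000963), which did not survive adjustment over all units. Inhba was at 35.2 and 43.8 FPKM without and 99.7 and 48.2 with doxycycline, also without overlap (difference 0.81, SE 0.412). The other 5 members overlapped between treated and untreated samples. The share of all units without overlap was not worked out for this comparison, so a lack of overlap is no result about these genes. Tgfb1 was at 36.5 and 26.8 FPKM without and 38.7 and 27.1 with the drug (difference 0.05, 95% interval -0.77 to 0.87). The study added doxycycline in the treated samples alone, so the drug and the protein cannot be told apart.

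The rest of the pathway was described by lists of genes, by how many members passed in each direction. Over all units tested, 6.68% were called lower and 2.87% higher in WT adaptation, and 3.47% and 1.4% in CIZ1 null adaptation. A single called gene in a list of 8 to 13 is therefore no result about that list. Among 13 targets of TGF-beta and activin, all of them tested, 5 fell and 0 rose in WT adaptation, with a median difference of -1.80 against -0.05 over all units. Of these, Pmepa1, a feedback inhibitor of the SMADs, had a difference of -2.49, Tagln, an actin-binding protein of contractile cells, -2.13, Acta2, smooth muscle actin, -1.84, and Ctgf, a matricellular protein, fell too. In CIZ1 null adaptation 1 of the 13 fell and 0 rose, Pmepa1 (-1.97, limma adjusted p = 0.0483), with a median of -1.71 against -0.04 over all units. Whether TGF-beta or activin moved these genes was not tested.

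Of 9 BMP targets tested in WT adaptation 1 fell (Hey1, -1.38, a transcription factor that is also a Notch target) and 0 rose, with a median of -0.10. In CIZ1 null adaptation 0 of 8 tested passed limma's test, 0 had an unadjusted p under 0.05, and the median was -0.05. The SMADs gave 0 of 8 in both genotypes, with 1 at an unadjusted p under 0.05 in each. Over all units tested, 6091 of 19919 in WT and 5868 of 20044 in CIZ1 null adaptation had an unadjusted p under 0.05 (limma).

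Genes of latency and activation, 12 of 14 tested in each genotype, included 5 that fell and 0 that rose in WT adaptation. These were Lrrc32, which tethers latent TGF-beta to the cell surface (-2.18), Furin, the protease that cuts the precursor (-1.61), Thbs1, an activator (-1.45), Bmp1, a protease that also cleaves Chordin (-1.31), and Itgav, a chain of activating integrins. The median was -1.17 against -0.05 over all units. In CIZ1 null adaptation 1 of 12 fell, Fbn2, a microfibril protein (-3.40, limma adjusted p = 0.0209), and 0 rose, with a median of -0.74 against -0.04.

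Of 12 receptors and co-receptors tested in WT adaptation 1 rose and 2 fell. The one that rose was Tgfbr3, or betaglycan, the co-receptor that presents TGF-beta 2 (1.86, limma adjusted p = 0.025). It was at 9.96, 4.22 and 5.59 FPKM in primary E13.8, E14.4 and E13.1 and at 26.5, 31.4 and 19.4 in their adapted lines. Eng, the endoglin co-receptor, fell (-1.49), as did Acvr2a, an activin receptor (-0.80). In CIZ1 null adaptation Tgfbr3 rose too (1.90, adjusted p = 0.025), at 6.50, 8.05 and 8.53 FPKM in primary and 22.6, 42.5 and 31.5 in adapted E13.17, E14.2 and E13.15, and 0 receptors fell. Its unit also lists Gm43422. Tgfbr3 was the pathway gene besides Pmepa1 that was called in both genotypes, in the direction opposite to Pmepa1.

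**Figure D5:**
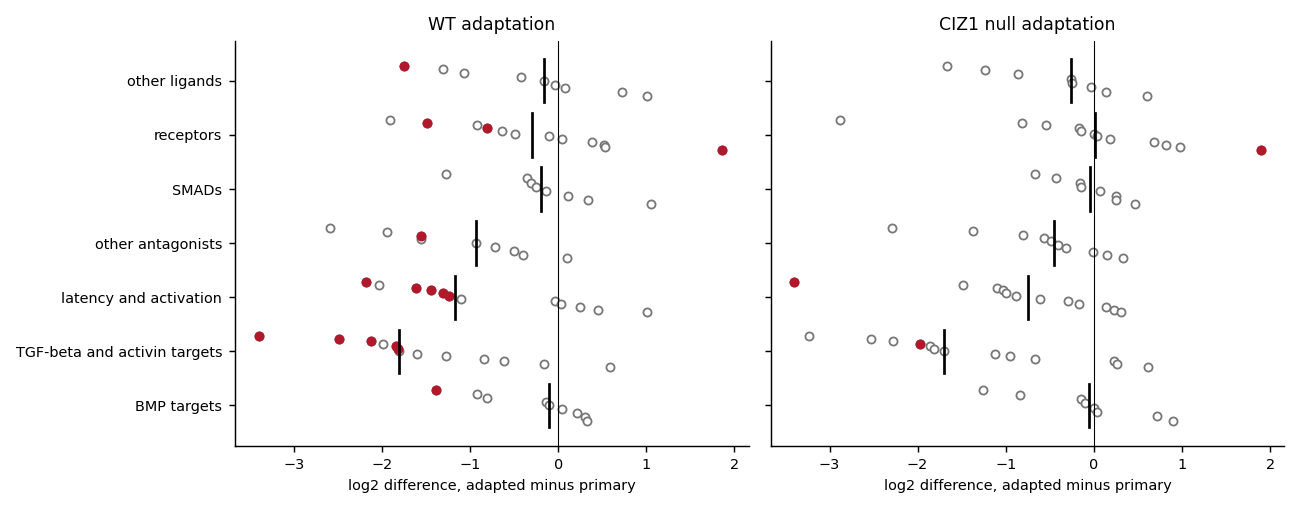
Differences (adapted minus primary, log2(FPKM + 1) scale) of the tested genes of 7 pathway lists in WT and CIZ1 null cells; red points passed the test, open points did not, and black bars are medians. The medians of the TGF-beta and activin targets are -1.80 and -1.71, the lowest of the 7 lists in both genotypes, and those of the BMP targets are -0.10 and -0.05.

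Among 22 other ligands 9 were tested in WT adaptation, of which 1 fell (Gdf15, a stress-induced ligand, -1.75) and 0 rose, and 8 were tested in CIZ1 null adaptation, of which 0 passed limma's test and 1 had an unadjusted p under 0.05. Among 15 other antagonists 9 were tested in WT adaptation, of which 1 fell (Chrd, which binds BMPs, -1.56) and 0 rose. In CIZ1 null adaptation 0 of 10 passed and 0 had an unadjusted p under 0.05. In the comparisons of CIZ1 loss, the interaction and doxycycline, 0 genes of the 7 lists were called, and among the BMP targets 5 of 9 had an unadjusted p under 0.05 on CIZ1 loss in primary cells (1225 of 19566 units in all). The median difference (null minus WT) of these 9 BMP targets was -0.59, the lowest of the 7 lists, against -0.0002 over all units.

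Units whose log2(FPKM + 1) followed each member closely over the 15 samples are given as a description, since the samples share embryos and differ in depth. For Tgfb1 they were Dusp4 and Sipa1l3 (Pearson r 0.972 and 0.971), for Tgfb3 Dnajb5 and Smtn (0.966 and 0.959), and for Inhba 2 units of Hspb1 (0.966 and 0.956). For Tgfb2 they were Cdc42ep1 and Ptpn1 (0.924 and 0.903), and for Grem1 Mir221 (0.873). Bmp4 was followed by Gm15217, at the same locus (0.971), and Hoxa10 (0.92), and Ltbp2 by D030025P21Rik, at the same locus (0.989), and Dysf (0.883). Bmp2, which was near 0 in most samples, was followed by Msl3 and Gyg (0.903 and 0.902).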

How the data were processed

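Per the labels and the study's methods, poly(A)-selected RNA was sequenced and the authors trimmed reads (cutadapt 1.8.3), aligned them to GRCm38 (HISAT2 2.0.5) and made FPKM per transcription unit (Cufflinks and Cuffnorm); read depth behind a value is unknown. The deposited table of Cuffdiff 2.2.1 (group means, fold changes, p and q values) holds the authors' own comparisons and was not used. Relative depth came from values under 0.3 FPKM, where steps of 1 fragment are visible. Embryos were identified by values identical to the study's per-line tables, and adapted lines are paired with primary populations through the shared embryo. The source name of untreated primary E13.17 reads S13, in conflict with its title. The title was followed, and all values compared were identical to the study's values for E13.17. Deviations of paired samples had correlations of -0.02 to 0.21 over 20031 units.

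FPKM were compared as log2(FPKM + 1), which understates changes of low units, with limma 3.58.1 (R 4.3.3, trend on mean), keeping units whose mean was 1 FPKM or more, using the samples of each comparison and no covariates; the script was tested on simulated data. The study counts untreated E13.17 among its primary CIZ1 null populations, as here. For genes with several units the one of highest mean FPKM was used, which was decided after the table was seen. Ratios were tested by exact two-sided permutation, and the alternatives are those named at the end. Other steps used Python 3.11.15, pandas 2.3.3 and NumPy 2.4.6. Gene positions are from GENCODE on GRCm38. Named genes were all members, at most 4 called genes of each list with the largest changes (a further called gene is named without a value), and the 2 units most correlated with each member. Some items that this rule names are not reported here. Genes of the pathway lists beyond these, and the lines singled out, were named after their values were seen. Members and lists were chosen with earlier results of these data known.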

Additional observations from a re-analysis of the deposited data

How the results depend on the processing

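With a pseudocount of 0.1, a mean FPKM of at least 5 or quantile normalization, Tgfb1 and Inhba stayed called in WT and Tgfb3 in CIZ1 null adaptation, each lower. In the other 4 comparisons 0 members were called under any alternative tried. For adaptation of WT cells, leaving out 1 sample gave 0 (each of the primary samples) to 4 called members (adapted E14.4), and for CIZ1 null cells 0 (any primary sample, or adapted E14.2) to 3 (adapted E13.15 or E13.17). For CIZ1 null cells, no filter on FPKM gave 0 called members, the embryo as a replicate block gave 0, and all 12 samples in a single fit gave 2 (Tgfb1 and Tgfb3). The single fit gave 3 for WT cells (Tgfb1, Tgfb3 and Inhba). The block changed no other call of a member. With all 4 untreated primary null samples the difference in the Tgfb2 share was 7.73 percentage points (exact permutation p = 0.0286, the smallest that 4 against 3 allow). The cause of these changes was not tested. Summing all units of a gene, chosen after the data were seen, changed no call of a member.

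Differences that changed sign were all ones that did not pass the test. Ltbp2 in WT adaptation was 0.054 under quantile normalization, and Tgfb2 in the interaction -0.85 with array weights. Leaving out 1 sample in turn gave -2.16 to 2.44 for the Grem1 to BMP ratio in WT adaptation, -1.27 to 0.016 for Tgfb2, -0.18 to 2.56 for Bmp4 and -0.80 to 0.22 for Ltbp2 there. It gave -0.26 to 0.15 for Tgfb1 and -0.89 to 0.0016 for Grem1 in CIZ1 loss in primary cells, and in adapted cells -0.85 to 0.48 for Tgfb2, -0.98 to 1.30 for Inhba and -0.85 to 0.97 for Grem1. In the interaction it gave -0.51 to 0.82 for Tgfb2, -1.04 to 0.38 for Tgfb3 and -0.37 to 1.45 for Grem1. With doxycycline it gave -0.20 to 0.30 for Tgfb1, -0.98 to 0.21 for Tgfb2, -1.68 to 0.72 for Bmp4 and -1.17 to 0.67 for Ltbp2. With 1 sample left in a treated group, that sample is assumed to vary like the others. Groups of 3, or 2, limit what could be called, and no count behind an FPKM is known.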
